A study of Homo sapiens with 40 samples.

Results

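PRRC2A, PRRC2B and PRRC2C are the 3 mRNAs of the PRRC2 (proline-rich coiled-coil 2) family, and they were taken by symbol from the 55765 gene rows of each of 40 RNA-Seq libraries. The family was chosen by measured values, because the difference of PRRC2A and PRRC2C between the eIF4A2 and DDX6 immunoprecipitates had already been seen. Every comparison that uses those precipitates is therefore given as a description, with no test. All 3 rows passed the filter on low counts in each of the 3 experiments, with 2039 to 159432 reads per library.

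All libraries came from HEK293, a human embryonic kidney line, and were poly(A)-selected. In the RIP-Seq experiment, endogenous eIF4A1, eIF4A2 or DDX6 was precipitated with its mRNA from untransfected cells in a short native procedure, next to total RNA of the lysates (4 groups of 3 libraries). In the sucrose gradient experiment, cells had received control siRNA or CNOT1 siRNA, and input RNA, subpolysomal RNA (fractions 1 to 5) and polysomal RNA (fractions 6 to 11) were sequenced (6 groups of 4 libraries). In the last experiment, total RNA was sequenced after control siRNA or TNRC6A and TNRC6B siRNA (2 groups of 2 libraries). An IgG precipitate was not analysed here, so that binding to the beads and binding to the protein cannot be told apart. Levels are CPM, that is read counts scaled to 1 common, TMM-adjusted library total within each experiment. A CPM value is a share of a library. A change in an mRNA and a change in the rest of the RNA cannot be told apart with it.

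The PRRC2 proteins are very long, largely disordered proteins that are found with the translation initiation factors eIF4G and eIF3 on initiating ribosomes, and in stress granules. PRRC2A has also been described as a reader of N6-methyladenosine (m6A) in mRNA. eIF4A1 and eIF4A2 are closely related DEAD-box helicases, of which eIF4A1 is the canonical helicase of the cap-binding complex eIF4F. DDX6 is a DEAD-box protein of translational repression and of P bodies that binds CNOT1, the scaffold of the Ccr4-Not deadenylase complex, and the TNRC6 proteins bring that complex to miRNA targets.

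The 3 mRNAs share a long coding region, and they differ in their 3′UTRs. On GRCh37 with the GENCODE v44 annotation, all 3 genes are on the plus strand. PRRC2A lies at chr6:31588492-31605548 with 31 exons, PRRC2B at chr9:134249023-134375584 with 32 exons, and PRRC2C at chr1:171454669-171562650 with 35 exons. The coding regions measured 6474 nt in PRRC2A, 6690 nt in PRRC2B and 8697 nt in PRRC2C, and 98%, 98.2% and 99.1% of 19327 coding genes had a shorter one. The 3′UTR was 185 nt in PRRC2A, 4319 nt in PRRC2B and 1664 nt in PRRC2C, against a median of 1036 nt. The 5′UTRs were close in length, at 244, 229 and 263 nt.

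The study counted 8 purine tetramers in mRNA regions. With 1 G or none they were AAGA, its shifted form AGAA, the form with G first GAAA and the pure run AAAA. With 2 G they were GAGA, its shifted form AGAG, the form with both G first GGAA and the form with G at both ends GAAG. They were searched here on the mRNA strand and without overlap. The last 30 nt before each start codon are shown. The study looked for purine motifs in a longer stretch of the 5′UTR next to the start codon. Each of the 30-nt stretches shown lies in exon 2, on the plus strand. Capitals would mark the tetramers, and none was found:

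PRRC2A, chr6:31590537-31590566: acccaacatactcaatgagcttccagcgca

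PRRC2B, chr9:134305502-134305531: aatttccttactagatgacatttcatcgca

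PRRC2C, chr1:171481198-171481227: aggttttggactcgatgagtttccaccgaa

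Of 17274 genes with at least 30 nt of 5′UTR, 47.9% held a tetramer in this stretch. Aligned without gaps, each pair of these stretches was identical at 18 of 30 positions, and all 3 at 15. In PRRC2B, the 30-nt window centred at -34 nt from the start codon held 2 tetramers. It lies within the longer stretch that the study searched. In PRRC2C, the window centred at -8 nt, which reaches past the start of the coding region, held 1. There the last bases gaa of the stretch shown and the A of the start codon spell GAAA. Over the whole 5′UTR, the density was 1.23 tetramers per 100 nt in PRRC2A, 1.75 in PRRC2B and 1.9 in PRRC2C, against a median of 1.86 over 18195 genes. The 5′UTRs of PRRC2A and PRRC2B were richer in G and C (70.5% and 72.5%) than that of PRRC2C (57.4%).

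In the coding region, by contrast, PRRC2C stood out from the other members. It held 4.37 tetramers per 100 nt, more than 85.6% of genes, while PRRC2B held 3.12 and PRRC2A 2.36 against a median of 2.88. The coding windows of 30 nt with the most tetramers show this difference, with the tetramers in capitals. Where several windows tied, the first from the 5′ end is shown. They lie in exon 12 of PRRC2A and PRRC2C and in exon 10 of PRRC2B:

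PRRC2A, chr6:31595665-31595694: GAAGAAGAggagcggcgcatgcAAGAAGAG

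PRRC2B, chr9:134330507-134330536: gatgatGAAGaggaGGAAGAAGttgtGAAG

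PRRC2C, chr1:171501901-171501930: GAAAGAAAGAAAgcAAGAAAAAGAAAAAGA

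The window of PRRC2C held 7 tetramers, and those of the other members held 4. When each mRNA was cut into consecutive windows of 30 nt, 43 of 290 coding windows of PRRC2C (14.8%) held 3 tetramers or more. The same was true of 10 of 223 in PRRC2B (4.48%) and 5 of 215 in PRRC2A (2.33%). In PRRC2C, 15 windows in a row, from 1508 to 1957 nt after the start codon, each held 2 or more, with 57 tetramers in all. The longest such run had 3 windows in PRRC2B and 2 in PRRC2A. The Pumilio motif TGTANATA occurred 1 time in the short 3′UTR of PRRC2A and was not found in the other 2, and 25.9% of all 3′UTRs hold it. These matches describe the letters only.

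**Figure D1:**
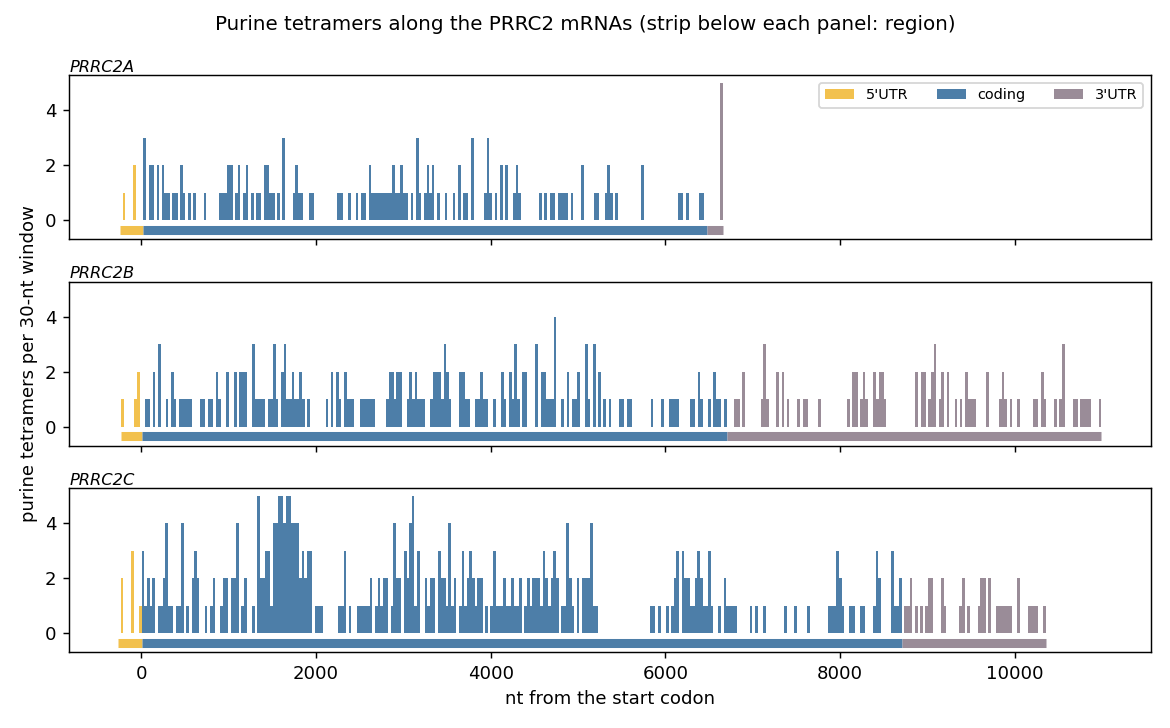
Number of purine tetramers (y axis) in consecutive 30-nt windows along the mRNA of each PRRC2 member, plotted by nt from the start codon (x axis), with bars and the strip coloured by the region of the window's first base. PRRC2C shows an unbroken block of windows with 2 or more tetramers from 1508 to 1957 nt, and the members differ in the length of the 3′UTR.

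Reads could be shared with overlapping genes. PRRC2B shares 2713 exonic bases with an lncRNA gene on the opposite strand (ENSG00000176868). The library kit keeps the strand, but the strand setting of the counting is not given in the sources used here, so reads of PRRC2B and of this lncRNA cannot be told apart. Newer protein-coding models on the same strand overlap PRRC2A by 393 and 87 exonic bases and PRRC2B by 429 and 90. The pseudogene PRRC2CP1 had 0 reads in all libraries.

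Library totals were 15353317 to 46018900 counts, and no pair of replicates among 50 agreed within sampling noise. The neurofilament and vimentin genes that HEK293 cells express were detected throughout (NEFL 66.1 to 1386, NEFM 197 to 6045 and VIM 105 to 676 CPM). The blood markers PTPRC and CD3E reached at most 0.0775 and 0.0606 CPM, and the liver marker ALB 0.4 CPM. The siRNA targets checked the labels. CNOT1 was at 628 to 711 CPM in control input and 36.8 to 41.4 CPM in CNOT1 siRNA input. Of the polysomal libraries, however, the library labelled control replicate 3 had 28.3 CPM of CNOT1 (the other controls 470 to 501), and the library labelled CNOT1 siRNA replicate 3 had 631 CPM (the others 24 to 31.6). The comparisons that use polysomal RNA are therefore given with and without both of these libraries, named the replicate 3 polysomes here. TNRC6A was at 178 and 189 CPM with control siRNA and 40.5 and 64.7 CPM after knockdown, and TNRC6B at 67.6 and 73.1 against 17.7 and 26.3 CPM.

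Per kilobase of annotated exon, PRRC2A mRNA was the most abundant member in input RNA. In control input, the levels were 73.1 ± 5.87 CPM per kb for PRRC2A, 58.2 ± 4.05 for PRRC2C and 39.7 ± 2.47 for PRRC2B (SD, n = 4), and the ranges of the 3 genes did not overlap. The same order was seen in RIP total RNA, with 76.9 ± 10.5, 47.9 ± 1.85 and 37.9 ± 3.57 CPM per kb (n = 3). In subpolysomal RNA the order was another one. With control siRNA, PRRC2B stood at 29.2 ± 3.84, PRRC2A at 26 ± 8.16 and PRRC2C at 11.2 ± 1.99 CPM per kb (n = 4), where PRRC2A and PRRC2B overlapped and PRRC2C lay below both. With the canonical mRNA length in place of all exons, PRRC2A (34.3 ± 10.8) came before PRRC2B (32.3 ± 4.25). That length was chosen after seeing the data.

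Among the 12 groups, each member had its highest mean level in the eIF4A2 IP. For PRRC2A and PRRC2B the eIF4A1 IP came second, with ranges that overlapped the eIF4A2 IP but no other neighbour. For PRRC2C the eIF4A2 IP lay above all other groups, and the next ones, CNOT1 siRNA input (999 ± 81.4 CPM, n = 4) and the eIF4A1 IP (978 ± 328, n = 3), overlapped each other. At the lower end stood the subpolysomal groups for PRRC2A and PRRC2C. For PRRC2B, the lowest group was subpolysomal RNA with CNOT1 siRNA (279 ± 36.9 CPM, n = 4), which overlapped polysomal RNA with the same siRNA (302 ± 66.3, n = 4). Most neighbours in the middle of each order overlapped. These orders cross experiments, whose TMM factors were set separately.

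The RIP-Seq asked which mRNAs are found with each helicase. All 3 members were at higher levels in the eIF4A2 IP than in the DDX6 IP and than in total RNA. PRRC2A, the shortest of the mRNAs, had 5348, 3471 and 1297 CPM in eIF4A2 IP replicates 1, 2 and 3, against 692, 801 and 611 CPM in total RNA and 947, 702 and 434 CPM in the DDX6 IP. The replicates of the eIF4A2 IP spread widely (3372 ± 2027 CPM, SD, n = 3), but the lowest of them was above every total RNA and DDX6 IP library. PRRC2B had 480, 510 and 422 CPM in total RNA, against 2585, 1820 and 1209 CPM with eIF4A2 and 787, 615 and 533 CPM with DDX6. Here, too, no eIF4A2 IP library reached down to the other groups. PRRC2C had 653, 683 and 705 CPM in total RNA, against 2874, 2716 and 1279 CPM with eIF4A2 and 642, 394 and 434 CPM with DDX6. Replicate 3 was the lowest eIF4A2 IP library for each of the members.

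**Figure D2:**
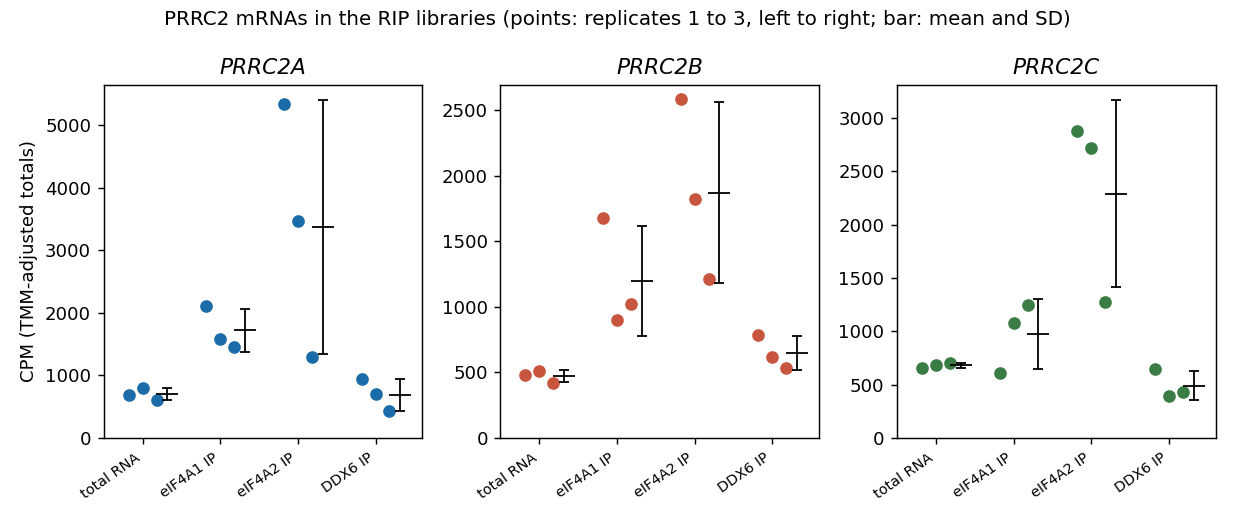
CPM on TMM-adjusted totals (y axis, linear, from 0) of each PRRC2 member in the 4 RIP groups (x axis), with replicates 1 to 3 as points from left to right and the mean and SD as a bar. The eIF4A2 IP points lie above all total RNA and DDX6 IP points in each panel, and replicate 3 is the lowest of them.

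The log2 difference of the eIF4A2 IP from the DDX6 IP, which is the contrast that chose the family, was 2.28 (SE 0.41) for PRRC2A, 1.54 (SE 0.29) for PRRC2B and 2.22 (SE 0.32) for PRRC2C. In the order of 17474 genes from the largest increase down, they took places 59, 244 and 74. The groups did not overlap for 3 of 3 members, and 19.3% of all genes were higher without overlap. PRRC2B was not named in the choice, but it was measured in the same libraries, so its value is no independent check. Ratios of same-numbered libraries were 5.65, 4.95 and 2.99 for PRRC2A, 3.28, 2.96 and 2.27 for PRRC2B, and 4.48, 6.89 and 2.95 for PRRC2C.

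Against total RNA, the eIF4A2 IP was higher by log2 2.27 (SE 0.41) for PRRC2A, 1.99 (SE 0.29) for PRRC2B and 1.75 (SE 0.32) for PRRC2C, that is 4.81-, 3.97- and 3.37-fold. All 3 members were higher without overlap here as well, as were 28.5% of genes. The DDX6 IP differed from total RNA less. The log2 difference was -0.01 (SE 0.39) for PRRC2A, 0.45 (SE 0.28) for PRRC2B and -0.47 (SE 0.31) for PRRC2C. The ranges overlapped for PRRC2A, PRRC2B was higher without overlap and PRRC2C lower without overlap, so that 2 of 3 did not overlap, where 58.3% of all genes did not.

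eIF4A1 IP libraries were not used in choosing the family, and their difference from total RNA was tested. The spread in this fit was estimated from all RIP libraries, however, which include the eIF4A2 and DDX6 IP libraries that chose the family. PRRC2A and PRRC2B rose in the eIF4A1 IP, and PRRC2C did not pass the test. PRRC2A had 2117, 1582 and 1460 CPM in eIF4A1 IP replicates 1, 2 and 3, all above total RNA (692, 801 and 611 CPM). It was 2.45-fold higher (log2 1.29, SE 0.40, FDR = 0.0154 by edgeR's quasi-likelihood test with Benjamini-Hochberg adjustment). PRRC2B had 1679, 897 and 1025 CPM, which was 2.55-fold higher (log2 1.35, SE 0.28, edgeR FDR = 0.00144). PRRC2C had 611, 1079 and 1244 CPM, and replicate 1 lay below all total RNA libraries (653 to 705 CPM). Its log2 difference was 0.52 (SE 0.31, edgeR FDR = 0.17).

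In this comparison 26.1% of genes were called higher and 29.5% were higher without overlap, and 2 of 3 members were so by each measure. With only the eIF4A1 IP and total RNA libraries in the fit, PRRC2A was at log2 1.32 (SE 0.2, edgeR FDR = 0.00035). In that fit PRRC2B was at 1.38 (FDR = 0.000712) and PRRC2C at 0.55 (FDR = 0.0741). PRRC2A was called in 9 of 11 alternatives, and the call was lost in 2 of the fits that left out 1 library. Without eIF4A1 IP replicate 1 it was log2 1.12 (edgeR FDR = 0.0538), and without total RNA replicate 3 it was 1.2 (FDR = 0.0568), within a range of 3.45e-09 to 0.0568 over 11 alternatives. PRRC2C was called when no low-count filter was used (log2 0.57, edgeR FDR = 0.02), within 0.02 to 0.451 over 11 alternatives.

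Set side by side with the eIF4A1 IP, the levels in the eIF4A2 IP were higher by log2 0.97 (SE 0.40) for PRRC2A, 0.64 (SE 0.28) for PRRC2B and 1.23 (SE 0.31) for PRRC2C. Only PRRC2C (1279 to 2874 against 611 to 1244 CPM) had groups that did not overlap, where 10.3% of genes were higher without overlap. The DDX6 IP was lower than the eIF4A1 IP by log2 -1.31 (SE 0.40) for PRRC2A, -0.90 (SE 0.28) for PRRC2B and -1.0 (SE 0.31) for PRRC2C. Among 17474 genes these were the 33rd, 187th and 112th lowest values. PRRC2A and PRRC2B did not overlap between these groups, and PRRC2C did, because of eIF4A1 IP replicate 1. Of all genes, 8.72% were lower without overlap. These contrasts share their eIF4A1 IP, eIF4A2 IP and DDX6 IP libraries with those above.

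The gradients were fractionated to see which mRNAs sit on polysomes. PRRC2A and PRRC2C made up a larger share of polysomal than of subpolysomal RNA, whereas the shares of PRRC2B overlapped. PRRC2A had 187, 164, 322 and 276 CPM in subpolysomal RNA and 787, 637, 779 and 514 CPM in polysomal RNA with control siRNA (replicates 1 to 4). PRRC2C had 192, 164, 154 and 123 CPM in subpolysomal RNA and 358, 337, 884 and 458 CPM in polysomal RNA. For both genes the fractions did not overlap. The highest PRRC2C value, 884 CPM, is that of the library labelled control replicate 3. PRRC2B had 331, 313, 411 and 395 CPM in subpolysomal RNA and 431, 327, 287 and 338 CPM in polysomal RNA, and its groups overlapped.

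In control siRNA cells, polysomal RNA exceeded subpolysomal RNA by log2 1.52 (SE 0.19) for PRRC2A, 2.87-fold (edgeR FDR = 1.34e-07). PRRC2C was 3.22-fold higher (log2 1.69, SE 0.24, edgeR FDR = 1.15e-06). PRRC2B differed by log2 -0.07 (SE 0.14, edgeR FDR = 0.668), and the fold change was higher than that of 48.6% of all genes. Of 16776 genes, 34.8% were called higher in polysomal RNA and 27.4% were higher without overlap, and 2 of 3 members were so by each measure. When the replicate 3 polysomes were left out, PRRC2A was at 1.46, PRRC2B at 0.03 and PRRC2C at 1.29. The edgeR FDR was then 6.1e-07, 0.852 and 1.26e-06, and 33.7% of genes were called higher.

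With CNOT1 siRNA, PRRC2A and PRRC2C were again called higher in polysomal RNA, and PRRC2B did not pass the test. PRRC2A had 257, 236, 395 and 326 CPM in subpolysomal and 800, 852, 608 and 591 CPM in polysomal RNA, a difference of log2 1.23 (SE 0.19, edgeR FDR = 3.53e-06). PRRC2C had 256, 149, 231 and 120 CPM in subpolysomal and 504, 475, 661 and 482 CPM in polysomal RNA, a difference of log2 1.49 (SE 0.24, edgeR FDR = 7.32e-06). PRRC2B had 266, 234, 298 and 318 CPM in subpolysomal and 284, 264, 400 and 260 CPM in polysomal RNA, and its log2 difference was 0.12 (SE 0.14, edgeR FDR = 0.465). Here 34.1% of genes were called higher and 28.3% were higher without overlap, and PRRC2A and PRRC2C were among them by each measure. The values without the replicate 3 polysomes were 1.31, -0.04 and 1.38 for PRRC2A, PRRC2B and PRRC2C, where 36% of genes were called higher.

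**Figure D3:**
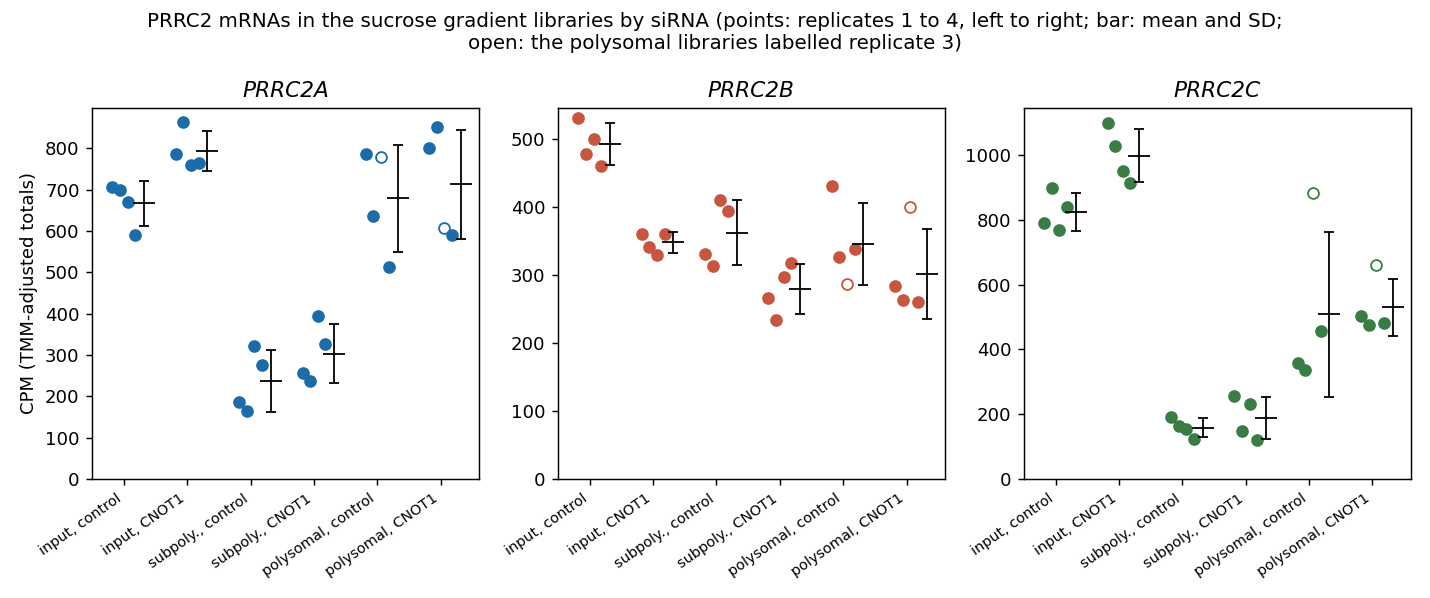
CPM on TMM-adjusted totals (y axis, linear, from 0) of each PRRC2 member in input, subpolysomal and polysomal RNA by siRNA (x axis), with replicates 1 to 4 as points from left to right, the mean and SD as a bar and the polysomal libraries labelled replicate 3 as open points. Subpolysomal points lie below polysomal points for PRRC2A and PRRC2C and among them for PRRC2B.

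Libraries with the same siRNA label and replicate number were also taken as a gradient. The log2 ratio of the polysomal to the subpolysomal level was formed for each gradient, with a pseudocount of 0.5 CPM. For PRRC2A it was 2.07, 1.96, 1.27 and 0.90 with control siRNA and 1.64, 1.85, 0.62 and 0.86 with CNOT1 siRNA (gradients 1 to 4). For PRRC2C it was 0.90, 1.04, 2.52 and 1.89 with control siRNA and 0.98, 1.67, 1.52 and 2.01 with CNOT1 siRNA. For PRRC2B it was 0.38, 0.06, -0.52 and -0.22 with control siRNA and 0.10, 0.17, 0.43 and -0.29 with CNOT1 siRNA. As labelled, PRRC2A and PRRC2C each exceeded PRRC2B in 8 of 8 gradients, by 0.19 to 1.90 and by 0.52 to 3.04. PRRC2A exceeded PRRC2C in 4 of 8. The 0.19, the 3.04 and 2 of the 4 gradients with PRRC2A below PRRC2C came from the replicate 3 polysomes. The ratios of gradient 3 join fractions with opposite CNOT1 levels, and so may not be ratios within a gradient. With the control label, CNOT1 was at 256 CPM in subpolysomal and 28.3 CPM in polysomal RNA. With the CNOT1 siRNA label, it was at 73.5 and 631 CPM. In the other 6 gradients the differences from PRRC2B were 1.12 to 1.90 and 0.52 to 2.30, and PRRC2A exceeded PRRC2C in 4 of 6.

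CNOT1 siRNA left no detectable change in these ratios. The mean ratio of PRRC2A was 1.55 ± 0.56 with control and 1.24 ± 0.59 with CNOT1 siRNA (SD, n = 4 each; exact permutation test, two-sided, p = 0.457). For PRRC2B it was -0.08 ± 0.39 and 0.10 ± 0.30 (exact p = 0.457), and for PRRC2C 1.59 ± 0.76 and 1.54 ± 0.43 (exact p = 0.943). With 4 gradients against 4 the smallest exact p is 0.0286. Without gradient 3 of both siRNAs the differences (CNOT1 minus control) were -0.20 for PRRC2A, -0.08 for PRRC2B and 0.28 for PRRC2C (exact p = 0.5, 0.8 and 0.6), and with 3 against 3 no p can fall below 0.1. The interaction of CNOT1 siRNA with the fraction was log2 -0.29 (SE 0.26, edgeR FDR = 0.564) for PRRC2A, 0.18 (SE 0.19, FDR = 0.629) for PRRC2B and -0.20 (SE 0.33, FDR = 0.785) for PRRC2C. Of all genes 5.66% had a called interaction. The interactions were -0.15, -0.06 and 0.09 without the replicate 3 polysomes, also not called, where 17.5% of genes were.

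**Figure D4:**
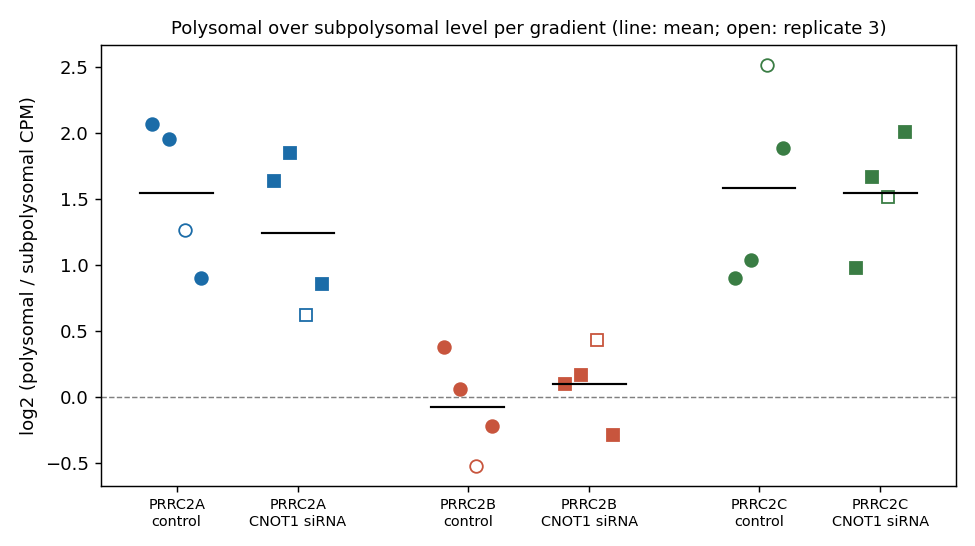
log2 ratio of polysomal to subpolysomal CPM (y axis, pseudocount of 0.5 CPM) per gradient for each member and siRNA (x axis), with gradients 1 to 4 from left to right, control siRNA as circles, CNOT1 siRNA as squares, replicate 3 as open symbols and the mean as a line. In each of the 8 gradients, as labelled, the ratios of PRRC2A and PRRC2C exceed that of PRRC2B. The ratio of PRRC2B lies between -0.52 and 0.43, or between -0.29 and 0.38 without the open symbols. Open symbols join fractions with opposite CNOT1 levels.

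CNOT1 knockdown asked which mRNAs depend on the Ccr4-Not scaffold. PRRC2B fell in input and in subpolysomal RNA. In input RNA it had 532, 479, 500 and 461 CPM with control siRNA and 361, 341, 330 and 361 CPM with CNOT1 siRNA. The groups did not overlap. It fell by 0.50 on the log2 scale (SE 0.14, edgeR FDR = 0.0121), to 0.706 of the control level, and 15.6% of genes were called lower. The call was kept in 16 of 16 alternatives, with an FDR between 1.79e-06 and 0.0369. With the replicate 3 polysomes left out of the estimate of the spread, the change was -0.50 as well (FDR = 0.000618), and 21.1% of genes were called lower.

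PRRC2A and PRRC2C moved the other way in input RNA, but their call depended on the libraries in the fit. PRRC2A had 707, 700, 670 and 590 CPM with control siRNA and 787, 864, 760 and 766 CPM with CNOT1 siRNA. PRRC2C had 791, 899, 770 and 841 CPM with control siRNA and 1099, 1028, 953 and 915 CPM with CNOT1 siRNA. For both genes every CNOT1 siRNA library was above every control library. The groups thus did not overlap for 3 of 3 members, and 50.6% of all genes did not overlap in one direction or the other. The log2 difference was 0.25 (SE 0.19, edgeR FDR = 0.305) for PRRC2A and 0.27 (SE 0.24, FDR = 0.38) for PRRC2C. When only the 8 input libraries were fitted, it was 0.27 (SE 0.06, FDR = 0.00126) and 0.29 (SE 0.06, FDR = 0.00117), and both were called. Over 16 alternatives the FDR was 0.00126 to 0.49 for PRRC2A and 0.00117 to 0.539 for PRRC2C, and each was called in 1.

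In subpolysomal RNA, PRRC2B had 331, 313, 411 and 395 CPM with control siRNA and 266, 234, 298 and 318 CPM with CNOT1 siRNA. The single CNOT1 siRNA library at 318 CPM lay above the lowest control. PRRC2B fell by 0.38 on the log2 scale (SE 0.14, edgeR FDR = 0.038), and 19.1% of genes were called lower. The call was lost in 6 of 16 alternatives, with an FDR of 0.00159 to 0.123, and among these were the fits without control replicate 3 (log2 -0.31, FDR = 0.109) or 4 (-0.34, FDR = 0.0943) and without CNOT1 siRNA replicate 1 (-0.35, FDR = 0.0822) or 2 (-0.30, FDR = 0.123). Leaving out the replicate 3 polysomes, it was called at -0.38 (FDR = 0.00633), beside 24.3% of genes. PRRC2A differed by log2 0.36 (SE 0.19, FDR = 0.143) and PRRC2C by 0.25 (SE 0.24, FDR = 0.433). None of the 3 members was free of overlap between these groups, where 27.3% of genes were. Between same-numbered libraries, which deviated together here, PRRC2A was higher with CNOT1 siRNA in 4 of 4 pairs, PRRC2B lower in 4 of 4 and PRRC2C higher in 2 of 4. With the replicate number as a block, the edgeR FDR was 0.144 for PRRC2A, 0.0324 for PRRC2B and 0.456 for PRRC2C. PRRC2A was called without control replicate 3 (log2 0.54, FDR = 0.0318), within 0.0318 to 0.445 over 16 alternatives.

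In polysomal RNA the result turned on the libraries labelled replicate 3. PRRC2B had 431, 327 and 338 CPM in control replicates 1, 2 and 4 and 284, 264 and 260 CPM in CNOT1 siRNA replicates 1, 2 and 4. The library labelled control replicate 3 had 287 CPM, near the CNOT1 siRNA libraries, and the library labelled CNOT1 siRNA replicate 3 had 400 CPM, near the controls. With all libraries no gene of 16776 was called (0% by edgeR and by DESeq2, 1123 genes at an unadjusted p under 0.05 in edgeR), and the groups did not overlap for 0.602% of genes and for none of the members. The log2 difference was 0.07 (SE 0.19) for PRRC2A, -0.19 (SE 0.14) for PRRC2B and 0.06 (SE 0.24) for PRRC2C. Without both libraries PRRC2B fell by 0.44 on the log2 scale (SE 0.12, edgeR FDR = 0.00783), next to 14.6% of genes called lower. PRRC2A was then at 0.21 (FDR = 0.477) and PRRC2C at 0.34 (FDR = 0.195).

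The changes of PRRC2B in the input, subpolysomal and, without the libraries of replicate 3, polysomal RNA were thus -0.50, -0.38 and -0.44. The comparisons use separate libraries but share 1 estimate of the spread.

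**Figure D5:**
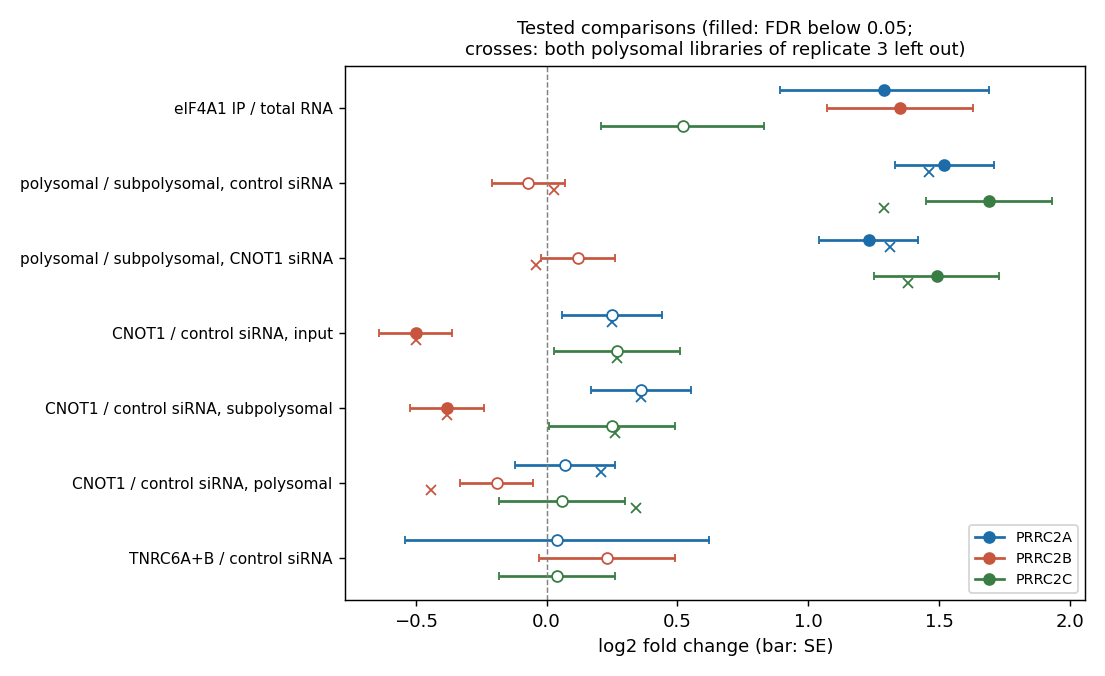
log2 fold change with its SE (x axis) of each PRRC2 member in 7 tested comparisons (y axis), with filled points for an FDR below 0.05 in the edgeR fit and crosses for the fit without both polysomal libraries of replicate 3. PRRC2A and PRRC2C are called in both polysomal to subpolysomal comparisons, and PRRC2B is called lower in input and subpolysomal RNA after CNOT1 siRNA.

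After TNRC6A and TNRC6B siRNA no member changed detectably. PRRC2A had 808 and 298 CPM with control siRNA and 755 and 379 CPM after knockdown, so replicates of a group differed by more than the groups. PRRC2B had 399 and 276 against 435 and 356 CPM, and PRRC2C 931 and 761 against 971 and 764 CPM. Within both groups replicate 1 was the higher library for each member. The log2 differences were 0.04 (SE 0.58), 0.23 (SE 0.26) and 0.04 (SE 0.22) for PRRC2A, PRRC2B and PRRC2C, each with an edgeR FDR of 1. No gene of 14064 was called by edgeR (0%), 289 had an unadjusted p under 0.05, and DESeq2 called 6 higher and 2 lower. Same-numbered libraries deviated together here (r = 0.862). With the replicate number as a block, edgeR called 520 genes higher and 243 lower, and no member was among them. PRRC2B and PRRC2C were higher after knockdown in both pairs, and PRRC2A was lower in pair 1 and higher in pair 2. No member was free of overlap between the groups, where 24.6% of genes were.

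Over the 28 libraries outside RIP-Seq, PRRC2A and PRRC2C followed each other more closely than either followed PRRC2B. The likeness is Pearson's r of log2 CPM centred within each experiment, over 8826 other genes, and it is a description of libraries that share gradients, fractions and depth. It was 0.817 between PRRC2A and PRRC2C, 0.33 between PRRC2A and PRRC2B and 0.333 between PRRC2B and PRRC2C. PRRC2C took place 1264 in the order of genes like PRRC2A. Without the replicate 3 polysomes, over 26 libraries, r was 0.81, 0.364 and 0.373, an alternative chosen after seeing the data. The genes most like PRRC2A were RPTOR (r = 0.992), VARS (0.986) and WNK2 (0.985). RPTOR encodes the Raptor subunit of mTORC1, and VARS a tRNA synthetase. Most like PRRC2C were EPRS (0.984), another tRNA synthetase gene, CLASP1 (0.983) and USP24 (0.983). PRRC2B had no gene as close, and the first were LAMA5 (0.885) and LAMB2 (0.869), which encode laminin chains, and ZSWIM8 (0.861). Over the 26 libraries the gene in place 3 was POLE (0.868) instead of ZSWIM8, and the other 8 named genes held their places.

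In the 12 RIP libraries, which include those that chose the family, r was 0.949 between PRRC2A and PRRC2B, 0.864 between PRRC2A and PRRC2C and 0.765 between PRRC2B and PRRC2C. PRRC2B was there the 3rd gene most like PRRC2A.

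mRNAs of classes named above with the PRRC2 proteins were read from 3 lists, which were drawn up with earlier results known. The lists are whole classes, and whether their members act together with PRRC2 proteins was not tested. They hold 29 initiation factors, 17 stress granule proteins and 8 m6A readers. Each count is set beside the share of all genes called in that comparison, and differences from that share were not tested. In the eIF4A1 IP, 1 initiation factor mRNA was called higher and 20 lower (median log2 -1.07, all genes 0.04), where PRRC2A and PRRC2B were called higher. Of all genes, 26.1% were called higher and 26.5% lower. EIF1, a start codon selection factor, was the one that rose (0.69, edgeR FDR = 0.00218), and EIF3C, an eIF3 subunit with a near-identical copy in the genome, fell most (-2.48, FDR = 1.36e-06). Of the stress granule mRNAs 4 were called higher and 6 lower (median 0.15), led by the poly(A)-binding protein gene PABPC1 (1.55, FDR = 1.02e-05) and by G3BP2 (-1.20, FDR = 3.9e-05). Of the m6A reader mRNAs 1 was called higher, YTHDF1 (0.66, FDR = 0.0019), and 6 lower, with YTHDF3 lowest (-0.94, FDR = 0.000185), and the median was -0.54.

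Of all genes, 34.8% were called higher in polysomal RNA and 37% lower with control siRNA. Of the initiation factors, 18 were called higher in polysomal RNA and 8 lower (median log2 0.80, all genes -0.02), with the eIF3 subunit EIF3B at 1.65 (edgeR FDR = 1.22e-13) and EIF4A1 at -2.35 (FDR = 4.01e-10). Of the stress granule mRNAs 8 were higher and 6 lower (median -0.08), from G3BP2 at 1.82 (FDR = 9.5e-11) to PABPC1 at -3.62 (FDR = 1.87e-13). Of the m6A readers 4 were higher and 1 lower (median 0.25), with YTHDC1 at 0.61 (FDR = 0.000227) and IGF2BP3 at -0.36 (FDR = 0.0107). These counts were, without the replicate 3 polysomes, 18 and 8, 7 and 9, and 4 and 2, beside 33.7% and 38.4% of all genes.

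With CNOT1 siRNA, 34.1% of all genes were called higher in polysomal RNA and 34.7% lower. Of the initiation factors, 20 were called higher and 4 lower (median 0.90), with EIF3A at 2.14 (edgeR FDR = 1.07e-09) and EIF4A1 at -2.05 (FDR = 5.92e-09). The stress granule mRNAs had 9 higher and 7 lower (median 0.33), with G3BP2 at 1.54 (FDR = 2e-09) and PABPC1 at -2.27 (FDR = 3.63e-10). The m6A readers had 6 higher and 1 lower (median 0.40), with YTHDC1 at 0.90 (FDR = 1.89e-06) and IGF2BP3 at -0.39 (FDR = 0.00621). Leaving out the same libraries gave 20 and 5, 9 and 7, and 7 and 1, beside 36% and 35.9% of all genes.

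In input RNA after CNOT1 siRNA, 13.4% of all genes were called higher and 15.6% lower. Of the initiation factors, 9 were called lower and none higher (median -0.11, all genes -0.03), and EIF1AX, a scanning factor, fell most (-0.84, edgeR FDR = 0.00746). The stress granule mRNAs had 6 higher and 3 lower (median 0.13), with FXR2 highest at 0.65 (FDR = 0.00907). The only called m6A reader was YTHDF1, which was higher (0.64, FDR = 0.00796; list median 0.02). The counts in input without the replicate 3 polysomes were 1 and 10, 7 and 4, and 1 and 0, beside 19.6% and 21.1% of all genes.

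In subpolysomal RNA after CNOT1 siRNA, 13% of all genes were called higher and 19.1% lower. Of the initiation factors, 2 were called higher and 12 lower (median -0.34, all genes -0.07), with EIF1 at 0.43 (edgeR FDR = 0.00686) and the eIF4A cofactor EIF4B at -1.33 (FDR = 1.92e-08). The stress granule mRNAs had 4 higher and 2 lower (median -0.08), with FXR2 at 0.75 (FDR = 0.00159) and PABPC1 at -1.21 (FDR = 6.24e-05). The only called m6A reader was YTHDC2 (-0.71, FDR = 0.000537; list median 0.01). Fitted without the replicate 3 polysomes, the lists had 2 and 14, 4 and 4, and 0 and 1, beside 17.7% and 24.3% of all genes. A called interaction with the fraction, which no PRRC2 member had, was found for 7 initiation factors, 1 stress granule mRNA and 1 m6A reader, in the direction of 3.26% of all genes. In all 9 the polysomal level rose relative to the subpolysomal level, led by EIF4B (1.30, FDR = 2.99e-05), PABPC1 (1.35, FDR = 0.00371) and YTHDC2 (0.77, FDR = 0.0198). EIF4B, PABPC1 and YTHDC2 were also called lower in subpolysomal RNA, as given above. Without both libraries the interaction was called up for 9, 5 and 2 genes and down for 3, 0 and 0, beside 9.99% and 7.51% of all genes. In polysomal RNA with all libraries, and after TNRC6A and TNRC6B siRNA, no gene of the lists was called. When the replicate 3 polysomes were left out, CNOT1 siRNA gave counts in polysomal RNA of 2 and 6, 7 and 2, and 2 and 0, beside 17.1% and 14.6% of all genes.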

How the data were processed

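RNA of HEK293 cells was sequenced from 40 libraries in 12 groups. Per the labels and the study's methods, the authors made libraries with a stranded TruSeq mRNA kit, converted reads with bcl2fastq 2.0, aligned them to hg19 with TopHat2 and counted them with htseq-count. The deposited values are raw counts per gene symbol. The annotation and strand setting of the counting are not given in the sources used here. A deposited series table with the authors' own comparisons of fold changes and p-values was not used.

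Groups and replicate numbers were taken from the labels, so p-values measure the spread between these libraries. The description of RIP total RNA replicate 3 says replicate 2, and its number was taken from the title. Counts were fitted over all genes with edgeR 4.0.16 (R 4.3.3, TMM factors, filterByExpr, quasi-likelihood F-test, group means, Benjamini-Hochberg adjustment, FDR under 0.05), once per experiment. Scripts were tested on simulated data. As alternatives, DESeq2 1.42.0, RLE factors, fits of unfiltered counts, fits of the compared libraries alone, a replicate block and fits with each library, or both polysomal libraries of replicate 3, left out were tried. DESeq2 and the block without those libraries were added after seeing the data. Polysomal to subpolysomal ratios were compared by an exact permutation test. Sequences and lengths came from GENCODE v44 on GRCh37, the build of hg19. Levels of different genes were compared per kilobase of exon. Depth was 15353317 to 46018900 counts per library.

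Replicate numbers paired the libraries in the RIP-Seq comparisons, in the CNOT1 comparisons of input and subpolysomal RNA and in the TNRC6 comparison. There every same-numbered pair deviated together from the group means (r over 0.1, for example 0.262 to 0.551 for eIF4A1 IP against total RNA, 0.195 to 0.358 in input and 0.586 to 0.736 in subpolysomal RNA), and the block changed no call of a member.

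The members and gene lists were chosen with earlier results of these data known. Named genes were the members, the siRNA targets, the called gene with the largest increase and decrease of each list in each tested comparison, and the 3 genes most like each member (mean of at least 10 CPM in every experiment). One gene named by this rule is not reported here.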

Additional observations from a re-analysis of the deposited data

Results flagged for a closer look

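PRRC2C in polysomal RNA with CNOT1 siRNA had 1 library far from the other 3: the library labelled replicate 3, at 661 CPM against 475 to 504 CPM. Its gap to the nearest library was 0.843 of the whole range, above Dixon's critical value for 4 samples. This is the library whose CNOT1 level (631 CPM) goes against its label. Such a gap is expected in about 1 of 20 groups, and 24 groups of 4 values of the members were examined.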

How the results depend on the processing

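Of 24 tested fold changes of the members, DESeq2, RLE factors and the replicate block each kept direction and side of the threshold for 24, and they kept the direction of the 15 described ones. The block gave, for example, log2 1.27 for PRRC2A in the eIF4A1 IP. It also did so where the numbers did not pair the libraries (polysomal comparisons, interaction). In TNRC6, where same-numbered libraries deviated together (r = 0.862), the block called 520 genes higher and 243 lower, against 0 without it.

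The cause of the following changes was not tested. With no low-count filter, PRRC2C in the eIF4A1 IP was called at 0.57, and PRRC2B in subpolysomal RNA after CNOT1 siRNA was not called at -0.34. With only the compared libraries, PRRC2A and PRRC2C in input after CNOT1 siRNA were called at 0.27 and 0.29, and PRRC2B in subpolysomal RNA was not called at -0.35. Without both polysomal libraries of replicate 3, by edgeR, DESeq2 and edgeR with the block, PRRC2B in polysomal RNA after CNOT1 siRNA was called at -0.44, -0.52 and -0.43. In the same 3 fits, the uncalled polysomal to subpolysomal difference of PRRC2B changed sign to 0.03, 0.06 and 0.04 with control siRNA and to -0.04, -0.09 and -0.01 with CNOT1 siRNA, and the uncalled interaction changed sign to -0.06, -0.14 and -0.06 for PRRC2B and 0.09, 0.00 and 0.09 for PRRC2C. Without gradient replicate 3 the ratio difference between siRNAs was -0.08 for PRRC2B and 0.28 for PRRC2C, both with turned sign.

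The described DDX6 IP difference of PRRC2A from total RNA (-0.01) had the other sign with no filter (0.02) and with only the compared libraries (0.01). Leaving out 1 library at a time changed a call or a sign in these ranges: eIF4A1 IP, PRRC2A 1.12 to 1.40; DDX6 IP against total RNA, PRRC2A -0.30 to 0.24; polysomal to subpolysomal, PRRC2B -0.17 to 0.02 with control and -0.04 to 0.19 with CNOT1 siRNA; CNOT1 siRNA in subpolysomal RNA, PRRC2A 0.21 to 0.54 and PRRC2B -0.45 to -0.30; in polysomal RNA, PRRC2A -0.04 to 0.15 and PRRC2C -0.10 to 0.46; interaction, PRRC2C -0.36 to 0.21; TNRC6, PRRC2A -0.55 to 0.92 and PRRC2C -0.15 to 0.21; ratio difference, PRRC2C -0.27 to 0.27. In the TNRC6 fits the lone library of a group is assumed to vary like the other group. PRRC2B kept its sign and stayed uncalled in polysomal RNA after CNOT1 siRNA (-0.36 to -0.07) and in the interaction (0.02 to 0.30). In all, 178 of 198 tested fold changes and 21 of 24 ratio differences kept direction and side of the threshold, and 88 of 90 described ones kept direction.

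On raw library totals 5 of 36 group means of the members moved by more than 1 SD. Each member had at least 2039 reads in each library, and the spread between replicates limits the precision.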
